A study of Mus musculus with 15 samples.

Results

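The 10 genes described here encode cell-surface receptors that receive peptide hormones of gut endocrine cells: Glp1r, Glp2r, Gipr, Cckar, Cckbr, Npy1r, Ntsr1, Sstr1, Sstr2 and Ghsr. They were chosen by name, as receptors for hormones that Rfx6-dependent cells make, and all 10 were found by Ensembl identifier among the 37620 identifiers of each deposited count table. RNA was sequenced from the ileum of adult mice in 15 libraries. All mice carried floxed Rfx6 alleles and were given tamoxifen by gavage. At 8 days after tamoxifen there were 3 control libraries, all Rfx6f/f, and 4 mutant libraries, Rfx6f/f with Vilin-CreERT2. At 3 months there were 4 control libraries, of which replicates 1 and 4 were Rfx6f/f and replicates 2 and 3 were Rfx6f/+, and 4 mutant libraries of the same genotype as at 8 days. The Cre recombinase, which tamoxifen activates, is driven by the villin promoter, a promoter of intestinal epithelial cells, so it is not directed to neurons, muscle, fibroblasts, vessels or leukocytes of the same tissue piece.

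Gut hormones are peptides released by enteroendocrine cells, which are scattered singly through the epithelium; most are released after a meal, while ghrelin rises with fasting. They act on G protein-coupled receptors on neighbouring epithelium, enteric neurons, fibroblasts and immune cells, and through the blood on the pancreas and brain. RFX6 is a winged-helix transcription factor of enteroendocrine and pancreatic islet cells. The comparisons ask how the transcripts of the receiving receptors stood in ileum whose hormone genes had changed.

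Each library held 30452485 to 54468586 counts at 8 days and 26078462 to 36270306 at 3 months. Levels are given as CPM, counts per 1000000 of a library size scaled within each table, and 3 counts, the smallest level read here as present, correspond to 0.0552 to 0.116 CPM on that scale. These limits cover counting error only. Total Rfx6 counts, the check of the targeted gene, were 50, 50 and 84 in the 8-day control libraries and 80, 105, 63 and 44 in those labelled mutant. They were 51, 52, 38 and 43 against 106, 72, 89 and 65 at 3 months, a log2 difference of 0.72 (SE 0.17, adjusted p = 0.0347). Whole-gene counts also cover exons outside the floxed part, so they do not test the deletion, and the groups are called libraries labelled mutant below. The ileal markers Fabp6, a bile acid binding protein, and Slc10a2, the bile acid uptake carrier, summed to at least 862 CPM in every library. At 8 days their sum was 1656 to 2358 CPM in controls and 1313 to 2323 CPM in libraries labelled mutant, and at 3 months it was 2514 to 3195 against 862 to 1490 CPM, with no overlap. Fabp6 fell at 3 months (log2 difference -1.44, SE 0.20, adjusted p = 0.00873) and Slc10a2 stood at -0.55 (adjusted p = 0.188). This holds in the same libraries as every 3-month receptor value, and its part in those values was not tested. Pancreatic acinar markers (Cpa1, Cela3b, Ctrb1, Pnliprp1) ranged from 1.07 to 623 CPM in sum, and were highest in labelled mutant replicate 3 at 8 days (122 CPM) and in control replicate 4 and labelled mutant replicate 4 at 3 months (623 and 201 CPM). The labels do not state that each library is a separate animal, so p-values measure the spread between these libraries.

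The ligands set the frame for the receptors. At 8 days 5 of the 10 ligand genes tested fell in the libraries labelled mutant (Gcg, Gip, Cck, Sst and Ghrl), and at 3 months 8 of 9 fell (these 5 with Nts, Pyy and Sct). These are edgeR calls. At 8 days 9 of the 10 had an unadjusted p under 0.05, and DESeq2 called the same 5 and also Nts, Pyy, Sct and Insl5, 9 in all, whose values lay below the controls without overlap in each case. limma-voom called 5. Insl5 was too low to be tested at 3 months (3 to 16 counts against 0 to 1), and Gast, Ppy and Cort were too low at both times, with at most 2, 25 and 7 counts in any library. Beside the edgeR calls, 0.0915% of all 17493 genes tested were called at 8 days and 9.28% of 17085 at 3 months. At 8 days DESeq2 called 1.02% of all genes and limma-voom 0.0915%, and 8.80% had an unadjusted p under 0.05 with edgeR. Gcg, whose product is cut into GLP-1 and GLP-2, had 1127, 1618 and 2290 counts in the 8-day controls, against 69, 179, 49 and 89 in libraries labelled mutant. At 3 months Gcg had 1565, 1264, 1251 and 2005 counts against 1, 0, 3 and 5. The 13 ligand genes together summed to 144 to 184 CPM in controls and 25.5 to 53.9 CPM in libraries labelled mutant at 8 days, and to 150 to 239 against 19.4 to 24.4 CPM at 3 months.

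Among the receptors themselves, none of the 8 that passed the filter on low counts at 8 days was called (edgeR quasi-likelihood test, adjusted p under 0.05), beside 0.0343% of all genes called higher and 0.0572% lower, 0.0915% together. The count at an unadjusted p under 0.05 was 0 with edgeR, beside 8.80% of all genes. DESeq2 and limma-voom also called 0, where they called 1.02% and 0.0915% of all genes. At 3 months 6 passed the filter and 3 were called: Glp2r and Sstr1 rose and Glp1r fell. limma-voom called 3 and DESeq2 4, with Npy1r added, where they called 9.49% and 17.8% of all genes. With edgeR the background was 4.96% of all genes called higher and 4.32% called lower, 9.28% together. The median log2 difference of the tested receptors was 0.09 at 8 days and 0.63 at 3 months, against a median over all tested genes of -0.002 and 0.008. In CPM, the values of 4 receptors at 3 months did not overlap between groups in the higher direction (Glp2r, Sstr1, Npy1r, Gipr) and 1 in the lower (Glp1r), where of 21537 genes 8.37% did not overlap in the higher and 8.01% in the lower direction, 16.4% together. At 8 days the CPM of 1 receptor, Cckbr, did not overlap, in the lower direction, but its lowest control and highest labelled mutant library both held 1 count, below the limit of 3, so nothing is read from it. Beside it, 3.66% of 21395 genes did not overlap in the lower and 3.77% in the higher direction, 7.43% together. Cckbr and Ghsr at 8 days, and these with Gipr and Sstr2 at 3 months, were too low to be tested. In tissue RNA, fewer cells of a type and less RNA per cell cannot be told apart. The 3-month calls rest on few libraries: 0 receptors were called without control replicate 1 and 0 with the Rfx6f/f controls only, and 1 was called without control replicate 2 and 1 without the acinar-rich pair of replicates 4.

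**Figure D1:**
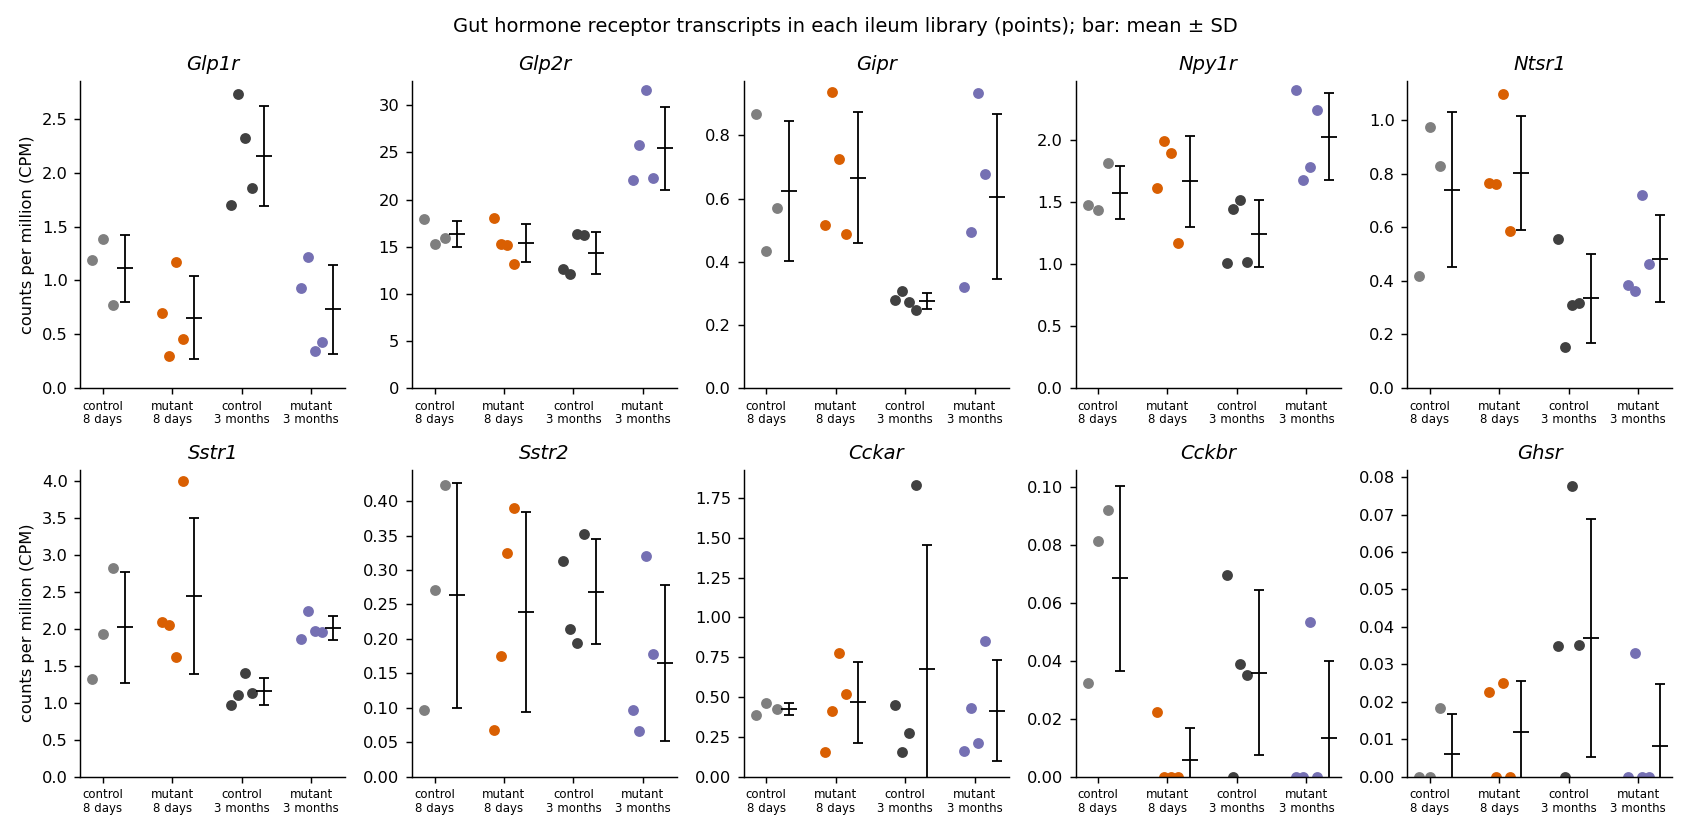
Each panel plots 1 receptor in CPM on a linear axis from 0, with 1 point per library, in 4 groups (control and labelled mutant at 8 days and at 3 months), and horizontal marks for the group mean with bars of 1 SD, drawn no lower than 0. Glp2r, Sstr1, Npy1r and Gipr at 3 months show labelled mutant points above all control points, and Glp1r shows them below.

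The stretches around the annotated start of 3 receptor genes are shown, because RFX6 is a DNA-binding protein and these are genes whose 3-month values did not overlap between groups and whose start is listed. The sequences are RefSeq promoters on GRCm38.p6, 250 bases before to 50 bases after the start, read along the gene's strand; capitals mark the 50 bases from the start on. Glp2r lies at chr11:67771104-67771403 on the minus strand, Glp1r at chr17:30901617-30901916 on the plus strand and Npy1r at chr8:66697172-66697471 on the plus strand.
Glp2r: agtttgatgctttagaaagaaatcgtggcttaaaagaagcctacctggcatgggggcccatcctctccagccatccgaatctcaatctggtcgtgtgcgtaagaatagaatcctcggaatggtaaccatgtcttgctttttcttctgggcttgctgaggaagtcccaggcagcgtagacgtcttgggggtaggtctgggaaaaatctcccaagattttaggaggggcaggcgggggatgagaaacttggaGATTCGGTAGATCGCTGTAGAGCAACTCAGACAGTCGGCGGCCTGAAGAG
Glp1r: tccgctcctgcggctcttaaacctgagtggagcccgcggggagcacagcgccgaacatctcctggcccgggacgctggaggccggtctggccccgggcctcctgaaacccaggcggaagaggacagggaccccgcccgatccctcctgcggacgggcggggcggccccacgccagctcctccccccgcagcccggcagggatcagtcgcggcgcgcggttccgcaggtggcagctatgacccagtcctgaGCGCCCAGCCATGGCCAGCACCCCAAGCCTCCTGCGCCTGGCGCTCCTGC
Npy1r: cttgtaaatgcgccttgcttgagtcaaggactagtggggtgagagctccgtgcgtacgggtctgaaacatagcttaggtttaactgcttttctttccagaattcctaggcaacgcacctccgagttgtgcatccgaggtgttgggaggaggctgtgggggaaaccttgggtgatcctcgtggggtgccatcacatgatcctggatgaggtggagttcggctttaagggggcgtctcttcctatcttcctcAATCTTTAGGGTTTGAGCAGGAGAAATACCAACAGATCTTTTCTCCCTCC
The half-site of the RFX family, GTTGCC, was searched on both strands (reverse GGCAAC). Npy1r held 1 match, GGCAAC beginning 143 bases before the start, and Glp1r and Glp2r held none, nor did the other 4 listed receptors. Of all 32851 promoters of this length, 12.5% hold it. The Glp1r stretch was the most GC-rich of the 3, at 73.7% with 29 CpG, beside 51.3% and 12 for Glp2r, 51.7% and 10 for Npy1r, and medians of 52.7% and 7 over all promoters. A match is a description of letters and is not a measured binding site.

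Glp2r (ENSMUSG00000049928, chromosome 11) encodes the receptor for GLP-2, the intestinal growth hormone cut from the Gcg product; in the gut it is known from fibroblasts beneath the epithelium and from enteric neurons. It was the most abundant of the 10 receptors and rose at 3 months. At 8 days the controls stood at 17.9, 15.3 and 15.9 CPM and the libraries labelled mutant at 18.0, 15.3, 15.2 and 13.1 CPM, which overlapped. The 8-day log2 difference was -0.09 (SE 0.12, adjusted p = 0.930). At 3 months the controls stood at 12.6, 12.1, 16.3 and 16.2 CPM and the libraries labelled mutant at 22.1, 25.7, 31.6 and 22.3 CPM. Every labelled mutant value lay above every control value. The means were 14.3 ± 2.24 and 25.4 ± 4.45 CPM (SD, n = 4 each), a log2 difference of 0.83 (SE 0.15, adjusted p = 0.0159). Without control replicate 1 it was 0.77 with adjusted p = 0.0533, and with the Rfx6f/f controls only 0.82 with adjusted p = 0.135. Over the 18 alternatives the adjusted p ran from 1.03e-05 to 0.135. Glp2r shares 66 exonic bases with Gas7 on the opposite strand, the only overlap among the 10 receptors, and the strand setting of the counting is not given.

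Markers of other cell types that share the tissue with Glp2r were read at 3 months, where edgeR called 4.96% of all genes higher and 9.28% in either direction. Of 5 endothelial markers 3 rose (Cdh5, Kdr, Vwf), and their list summed to 118 to 125 CPM in controls and 153 to 213 CPM in libraries labelled mutant. Of 5 fibroblast markers 1 rose, Pdgfra, with sums of 885 to 975 and 945 to 1538 CPM. Of 5 enteric glia markers 1 rose, Ncam1, with sums of 21.2 to 24.2 and 27.2 to 38.0 CPM. Of the 2 markers of interstitial cells of Cajal 1 rose, Ano1 (adjusted p = 0.0454), with sums of 48.4 to 60.9 and 61.4 to 89.4 CPM. Of 12 enteric neuron markers 1 rose, Snap25 (log2 difference 0.70, adjusted p = 0.0106), 11 of 12 differences were positive, and the sums, 65.5 to 68.6 and 66.2 to 96.0 CPM, overlapped. Of 7 smooth muscle markers 0 were called by edgeR or limma-voom and 1 by DESeq2, with 3 at an unadjusted p under 0.05 with each tool. Of all genes at 3 months, 29.4% had an unadjusted p under 0.05 with edgeR, and DESeq2 called 8.78% higher. All 7 smooth muscle differences were positive, with a median of 0.37, and the sums were 1595 to 1932 and 1742 to 3133 CPM. No marker on these lists was at 0 throughout a group. Across the 15 libraries, after subtracting group means, Glp2r correlated with the endothelial sum at Pearson r of 0.58, with fibroblasts at 0.45, glia at 0.61, interstitial cells of Cajal at 0.49, neurons at 0.36 and smooth muscle at 0.33. At 8 days these 6 sums overlapped between groups. The r farthest from 0 was that with the summed B cell markers, -0.67, of which edgeR, DESeq2 and limma-voom called 0 of 4 at 3 months (1, 1 and 4 at an unadjusted p under 0.05). These points share libraries and depth, and the part of these cell types in the Glp2r result was not tested.

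Glp1r (ENSMUSG00000024027, chromosome 17) encodes the receptor for GLP-1, the incretin cut from the same precursor; in the intestine it is known from intraepithelial lymphocytes and enteric neurons. It fell at 3 months. At 8 days the controls stood at 1.19, 1.38 and 0.773 CPM and the libraries labelled mutant at 0.697, 0.293, 1.17 and 0.455 CPM. Labelled mutant replicate 3 lay within the control range and the other 3 below it, with a log2 difference of -0.76 (SE 0.43, adjusted p = 0.706). At 3 months the controls stood at 1.71, 2.73, 2.33 and 1.87 CPM and the libraries labelled mutant at 0.931, 1.22, 0.347 and 0.427 CPM. The groups did not overlap, and labelled mutant replicate 2 was the nearest to the controls. The means were 2.16 ± 0.466 and 0.732 ± 0.417 CPM (SD, n = 4 each), a log2 difference of -1.57 (SE 0.37, adjusted p = 0.0366). The counts behind it were 49 to 89 in controls and 12 to 37 in libraries labelled mutant.

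The direction of Glp1r at 3 months held in all 18 alternatives, with log2 differences from -1.93 to -1.29, and the call held in 10, with adjusted p from 0.00151 to 0.249. Adjusted p was 0.0690, 0.0977 and 0.0917 without control replicate 1, 2 or 3, and 0.0594, 0.0661 and 0.0640 without labelled mutant replicate 1, 3 or 4. It was 0.249 with the Rfx6f/f controls only and 0.0782 without the acinar-rich pair.

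Markers of intraepithelial and T lymphocytes moved the same way as Glp1r at 3 months. Of 6 markers 3 fell (Cd3g, Cd8a and Itgae, by 1.24, 1.35 and 0.89 on the log2 scale) and none rose with edgeR. Gzma and Gzmb, killer cell proteases, stood further from the controls, at -2.02 (adjusted p = 0.0507) and -1.92 (adjusted p = 0.0546), and DESeq2 and limma-voom each called 5 of 6 lower. Of all genes at 3 months, edgeR called 4.32% lower, DESeq2 9.03% and limma-voom 4.58%. At 8 days edgeR, DESeq2 and limma-voom called 0 of these 6 markers. None of the 6 had an unadjusted p under 0.05, beside 8.80% of all genes with edgeR. Their sum was 240, 303, 296 and 218 CPM in the 3-month controls and 53.7, 172, 45.9 and 89.6 CPM in the libraries labelled mutant, which did not overlap. Replicate 2 was the highest of the libraries labelled mutant both in this sum and in Glp1r. No marker of the list was at 0 in any library. The correlation of Glp1r with the sum within groups was 0.76 over the 15 libraries. It was -0.76 with the summed smooth muscle markers, -0.78 with those of interstitial cells of Cajal and -0.62 with those of enteric neurons. Their part in the Glp1r result was not tested.

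Gipr (ENSMUSG00000030406, chromosome 7) encodes the receptor for GIP, the other incretin, best known from pancreatic islets and fat. At 8 days it stood at 0.869, 0.433 and 0.570 CPM in controls and at 0.517, 0.938, 0.724 and 0.488 CPM in libraries labelled mutant, which overlapped (log2 difference 0.13, SE 0.33, adjusted p = 0.971). In the 3-month table Gipr had 8, 10, 7 and 7 counts in controls and 10, 15, 35 and 19 in libraries labelled mutant. In CPM these were 0.278, 0.307, 0.272 and 0.246 against 0.321, 0.495, 0.933 and 0.676, with no overlap but a narrow gap between control replicate 2 and labelled mutant replicate 1. Gipr did not pass the filter at 3 months. In a fit without the filter the log2 difference was 1.13 with adjusted p = 0.0993. It was called in 1 of the 8 alternatives that kept it, the one without labelled mutant replicate 1 (1.34, adjusted p = 0.0424). Its ligand gene Gip had 42 to 118 counts in the 3-month controls and 1 in each library labelled mutant.

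Npy1r (ENSMUSG00000036437, chromosome 8) encodes the Y1 receptor for peptide YY and neuropeptide Y, which couples to inhibitory G proteins. At 8 days it stood at 1.48, 1.44 and 1.82 CPM in controls and at 1.62, 1.99, 1.90 and 1.17 CPM in libraries labelled mutant, which overlapped (log2 difference 0.08, SE 0.22, adjusted p = 0.971). At 3 months it stood at 1.01, 1.44, 1.51 and 1.02 CPM against 2.41, 1.68, 1.79 and 2.24 CPM, with no overlap. The 3-month means were 1.25 ± 0.270 and 2.03 ± 0.351 CPM (SD, n = 4 each), a log2 difference of 0.70 (SE 0.20, adjusted p = 0.0600), which missed the threshold. DESeq2 gave 0.70 with adjusted p = 0.0343 and the joint fit of all libraries 0.68 with adjusted p = 0.0448, both past it. Over the 18 alternatives adjusted p ran from 0.0343 to 0.178. Pyy had 548 to 697 counts in the 3-month controls and 0 to 3 in the libraries labelled mutant, while Npy, the neuronal ligand, had 20 to 31 and 12 to 27 (log2 difference -0.75, adjusted p = 0.102).

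Ntsr1 (ENSMUSG00000027568, chromosome 2) encodes the high-affinity receptor for neurotensin. At 8 days it stood at 0.418, 0.975 and 0.828 CPM in controls and at 0.765, 0.762, 1.10 and 0.585 CPM in libraries labelled mutant. At 3 months it stood at 0.557, 0.154, 0.311 and 0.317 CPM against 0.385, 0.363, 0.720 and 0.463 CPM. The groups overlapped at both times. The log2 differences were 0.10 (SE 0.32, adjusted p = 0.975) and 0.55 (SE 0.39, adjusted p = 0.375). Nts, its ligand gene, had 1544 to 2469 counts in the 3-month controls and 3 to 8 in the libraries labelled mutant.

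Sstr1 and Sstr2 encode receptors for somatostatin, the peptide that restrains the release of other hormones, and both couple to inhibitory G proteins. Sstr1 (ENSMUSG00000035431, chromosome 12) rose at 3 months. At 8 days it stood at 1.32, 1.92 and 2.81 CPM in controls and at 2.09, 2.05, 1.62 and 3.998 CPM in libraries labelled mutant, with labelled mutant replicate 4 the highest of all (log2 difference 0.25, SE 0.35, adjusted p = 0.934). At 3 months the controls stood at 0.974, 1.11, 1.40 and 1.13 CPM and the libraries labelled mutant at 1.86, 2.24, 1.97 and 1.96 CPM, with no overlap. The means were 1.15 ± 0.178 and 2.01 ± 0.164 CPM (SD, n = 4 each), a log2 difference of 0.80 (SE 0.16, adjusted p = 0.0213). Adjusted p was 0.0644 and 0.0653 without control replicate 1 or 2, 0.134 with the Rfx6f/f controls only, 0.0784 in the joint fit and 0.0620 without the acinar-rich pair. It ran from 0.00408 to 0.134 over the 18 alternatives, with the log2 difference between 0.73 and 0.93.

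The summed enteroendocrine markers (Chga, Chgb, Neurod1, Isl1, Pax6, Scg3) were 94.4 to 136 CPM in the 3-month controls and 299 to 382 CPM in the libraries labelled mutant. With edgeR 2 of the 6 rose and 2 fell, where 4.96% of all genes were called higher and 4.32% lower. DESeq2 called 3 higher and 2 lower (8.78% and 9.03% of all genes), and limma-voom 2 and 2 (4.92% and 4.58%). The granins Chga and Chgb, soluble proteins of secretory granules, were the genes that rose with edgeR. Isl1 and Pax6, transcription factors of hormone cells, fell. Sstr1 correlated with this sum at 0.61 and with the acinar sum at -0.62 within groups over the 15 libraries, and the part of either in the Sstr1 result was not tested.

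Sstr2 (ENSMUSG00000047904, chromosome 11) was lower in counts, with 3, 10 and 23 in the 8-day controls, against 3, 9, 13 and 12 in libraries labelled mutant (log2 difference -0.28, SE 0.60, adjusted p = 0.964). At 3 months it had 9, 7, 5 and 10 counts against 3, 2, 12 and 5, which overlapped and were too low to be tested. Sst, the ligand gene of both receptors, had 248 to 359 counts in the 3-month controls and 68 to 225 in the libraries labelled mutant (log2 difference -1.32, SE 0.33, adjusted p = 0.0407).

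Cckar (ENSMUSG00000029193, chromosome 5) encodes the receptor for cholecystokinin that acts on gallbladder, vagal nerve endings and pancreatic acinar cells. At 8 days it stood at 0.386, 0.461 and 0.423 CPM in controls and at 0.157, 0.410, 0.774 and 0.520 CPM in libraries labelled mutant (log2 difference 0.11, SE 0.45, adjusted p = 0.984). At 3 months it stood at 0.452, 0.154, 0.272 and 1.83 CPM against 0.161, 0.429, 0.213 and 0.854 CPM (log2 difference -0.73, SE 0.79, adjusted p = 0.568). The groups overlapped at both times. The highest Cckar value of 3 groups came from the library with the highest acinar sum of that group: labelled mutant replicate 3 at 8 days and replicate 4 of each group at 3 months. In the 8-day controls this did not hold, as the lowest Cckar value (0.386 CPM) was in replicate 1, which had the highest acinar sum (68.4 CPM). Without control replicate 4 the 3-month log2 difference turned to 0.47 (adjusted p = 0.653). Cckar correlated with the acinar sum at 0.68 within groups over the 15 libraries, and its part in the Cckar values was not tested.

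Cckbr (ENSMUSG00000030898, chromosome 7), the receptor for gastrin and cholecystokinin, had 1, 3 and 5 counts in the 8-day controls, against 1, 0, 0 and 0 in libraries labelled mutant. At 3 months it had 2, 0, 1 and 1 counts against 0, 0, 2 and 0. Ghsr (ENSMUSG00000051136, chromosome 3), the ghrelin receptor best known from the pituitary and hypothalamus, had at most 2 counts in any library. Both were at or near the limit of 3 counts, so no fold is given, and a difference was not detectable at this depth. Ghrl, the ghrelin gene, had 37 to 93 counts in the 3-month controls and 1 in each library labelled mutant.

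**Figure D2:**
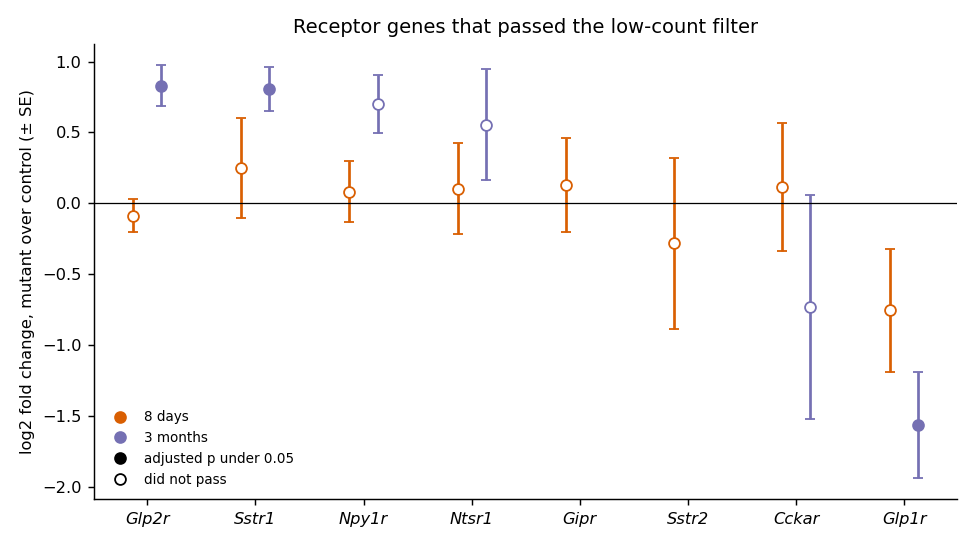
Log2 differences, labelled mutant minus control, of the tested receptors at 8 days and at 3 months, with bars of 1 SE and filled points for genes called at adjusted p under 0.05. At 3 months Glp2r (0.83) and Sstr1 (0.80) lie above 0 and Glp1r (-1.57) below, and no 8-day point is filled. Gipr and Sstr2 have an 8-day point only.

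The change of the effect between the times was tested itself, over all 15 libraries; time and cohort cannot be told apart. Of the 8 receptors tested none was called (edgeR), where 0.785% of 17959 genes were called (0.379% more positive and 0.406% more negative at 3 months). An unadjusted p under 0.05 was found for 1 of the 8, beside 16.6% of all genes. That receptor was Glp2r, with a difference of effects of 0.90 on the log2 scale (SE 0.20, adjusted p = 0.0519). It was called in 9 of 23 alternatives, among them DESeq2 (0.91, adjusted p = 0.00142), without 8-day labelled mutant replicate 1 (0.98, adjusted p = 0.0150), and without 3-month labelled mutant replicate 2 (0.90, adjusted p = 0.0495) or 4 (0.95, adjusted p = 0.0372). limma-voom called none, and over the alternatives adjusted p ran from 0.00142 to 0.202. For Glp1r the difference of effects was -0.83 (SE 0.62, adjusted p = 0.542) and for Sstr1 0.54 (SE 0.40, adjusted p = 0.543). So Glp1r and Sstr1, called at 3 months and not at 8 days, were not shown to differ between the times.

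Divided by the length of the annotated exons, the receptors were put in order by their mean over all 15 libraries, which pools groups whose levels differ. Glp2r led with a mean of 3.09 CPM per kilobase (range 2.09 to 5.44 over the 15 libraries), followed by Sstr1 at 0.927 (0.476 to 1.95) and Npy1r at 0.473 (0.292 to 0.697). Glp1r (0.201), Gipr (0.154), Ntsr1 (0.148), Cckar (0.136) and Sstr2 (0.108) followed, all in CPM per kilobase, and Cckbr (0.00990) and Ghsr (0.00371) came last. Only Glp2r and Sstr1 were neighbours whose ranges did not overlap. Sstr1 was above Npy1r, and Sstr2 above Cckbr, in 15 of 15 libraries although their ranges overlapped. Npy1r was above Glp1r in 12 of 15, and the other 3 were all controls at 3 months, where Glp1r had a mean of 0.371 and Npy1r of 0.361 CPM per kilobase. Glp1r also changed rank with Gipr: it was above Gipr in 4 of 4 controls at 3 months and in 0 of 4 libraries labelled mutant at 8 days. Ntsr1 was above Cckar in 3 of 3 controls and 4 of 4 libraries labelled mutant at 8 days, and in 11 of 15 libraries in all. Over all libraries, the ranges of the neighbours from Glp1r to Sstr2 overlapped.

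**Figure D3:**
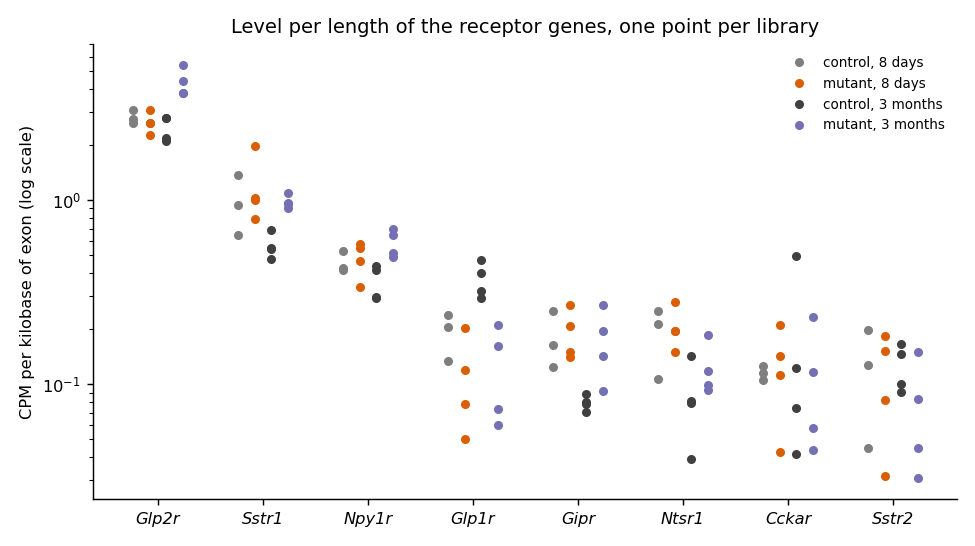
Receptor levels in CPM per kilobase of exon on a logarithmic axis, 1 point per library in 4 groups, ordered by the mean over 15 libraries, without Cckbr and Ghsr, which were at 0 in some libraries. Glp2r stands apart from Sstr1, and the receptors from Glp1r to Sstr2 overlap.

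Other receptors of the same signalling, 23 in all with 20 tested at each time, showed 0 calls at 8 days with edgeR and limma-voom. DESeq2 called 1, in the lower direction, where it called 0.395% of all genes lower. With edgeR 2 had an unadjusted p under 0.05, beside 8.80% of all genes. At 3 months 3 rose and 0 fell with edgeR, as with limma-voom, and DESeq2 called 5 higher, with Gcgr and Tacr2 added. Of all genes, edgeR called 4.96% higher, limma-voom 4.92% and DESeq2 8.78%. The median log2 difference was 0.23. Galr1, the galanin receptor, had 12, 18, 11 and 17 counts in the 3-month controls, against 81, 41, 86 and 57 in libraries labelled mutant (log2 difference 2.04, SE 0.25, adjusted p = 0.00472). The difference of its effects between the times was 1.84, called by edgeR (adjusted p = 0.0265) and DESeq2 (adjusted p = 0.000507) but not by limma-voom (1.82, adjusted p = 0.0513). Tacr1, the substance P receptor, went from 2.38 ± 0.352 to 5.72 ± 0.669 CPM (SD, n = 4 each; log2 difference 1.26, SE 0.15, adjusted p = 0.00415). Vipr1, a receptor for vasoactive intestinal peptide, went from 154 ± 20.2 to 248 ± 39.1 CPM (log2 difference 0.69, SE 0.13, adjusted p = 0.0178). Sstr5, another somatostatin receptor, was singled out after its values were seen. At 8 days it stood at 1.11 ± 0.168 CPM (n = 3) and 0.385 ± 0.127 CPM (n = 4) with no overlap. The edgeR log2 difference was -1.55 (SE 0.30, unadjusted p = 0.000595, the smallest of the 20 tested, adjusted p = 0.200). At 3 months the edgeR difference of Sstr5 was -1.07 (SE 0.43, adjusted p = 0.139).

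Of 6 enzymes that cut or activate these peptides, 5 were tested and 0 were called at either time with edgeR, DESeq2 or limma-voom. At 3 months 1 had an unadjusted p under 0.05 with edgeR, beside 29.4% of all genes. At 3 months Thop1, a neurotensin-cutting peptidase, stood at -0.19 (adjusted p = 0.170), Dpp4, the incretin-cutting peptidase, at -0.25 (adjusted p = 0.314), and Mme, neprilysin, at -0.44 (adjusted p = 0.412), as log2 differences. Of 13 G proteins, arrestins and receptor kinases, 0 were called at 8 days with any of the 3 tools. None had an unadjusted p under 0.05, beside 8.80% of all genes with edgeR. At 3 months edgeR and limma-voom called 2 and DESeq2 4 (3 higher, 1 lower), where edgeR called 9.28%, limma-voom 9.49% and DESeq2 17.8% of all genes. Gnao1, an inhibitory G protein subunit abundant in neurons, rose (0.52, SE 0.14, adjusted p = 0.0483) and Grk6, a receptor kinase, fell (-0.34, SE 0.09, adjusted p = 0.0434), both values from edgeR. The enteric neuron marker Snap25 rose in the same libraries (adjusted p = 0.0106), and the part of neurons in the Gnao1 value was not tested.

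**Figure D4:**
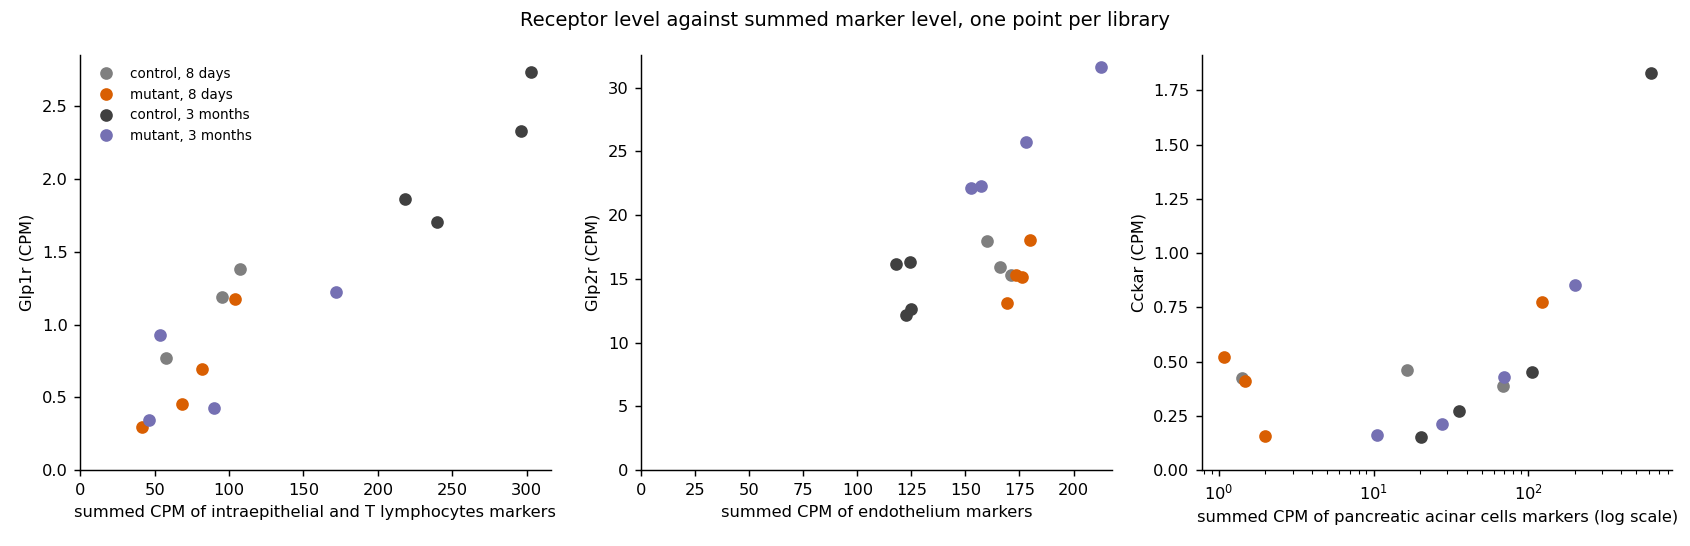
Levels in CPM of Glp1r, Glp2r and Cckar plotted against the summed CPM of lymphocyte, endothelial and acinar markers (the last on a log axis), 1 point per library in 4 groups, where mutant means labelled mutant. The 4 controls at 3 months are highest in both lymphocyte markers and Glp1r, and control replicate 4 at 3 months is highest in both acinar markers (623 CPM) and Cckar (1.83 CPM).

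For each of the 8 receptors in the joint fit, the genes with the most similar pattern were sought over 15205 genes, by Pearson correlation of log2 CPM over the 15 libraries after subtracting group means. Glp1r was most like Ppm1h (0.926), Cd47 (0.906) and Btnl4 (0.898). Glp2r was most like Plekhh2 (0.877), Arhgap6 (0.871) and Daam2 (0.867). Cckar was most like Rnase1 (0.943), Zfand2b (0.892) and Vamp5 (0.889). Npy1r was most like Il11ra1 (0.868), Tbc1d8 (0.852) and Oas1d (0.849). Sstr1 was most like Lsm11 (0.925), Mea1 (0.881) and Rps16 (0.881), and Sstr2 was most like Slc36a2 (0.939), Pus7l (0.926) and Megf6 (0.883). Gipr was most like Tecpr2 (0.928), Adamts6 (0.890) and Pkhd1 (0.860), and Ntsr1 was most like Klhl1 (0.871), Zswim7 (0.869) and Mblac1 (0.836). These are the highest of many correlations over few libraries and are given as a description.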

How the data were processed

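Ileum RNA was sequenced in 15 libraries. Per the submitters' processing notes, the tools were bcl2fastq 2.17.1.14, Bowtie 1.0.0, TopHat2 2.0.10, Bowtie2 2.1.0 and HTSeq 0.6.1 with the mm9 genome. The authors deposited raw counts per gene in a table per time point. The annotation release and strand setting are not given in the sources used here. Per the labels, libraries followed Ribo-Zero preparation of total RNA, while the molecule field names polyA RNA, and RNA came from TRI-reagent or RNeasy without a sample assignment. Symbols from the GENCODE M21 annotation matched 87.4% of 37620 identifiers, and the rest held 0.675% of counts. The reference (GRCm38) was used only for names, exon lengths, overlaps and promoters.

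Counts were tested with edgeR 4.0.16 (R 4.3.3, quasi-likelihood F test, filterByExpr with a minimum of 10, TMM scaling), each time point alone, with Benjamini-Hochberg adjustment over all genes tested and calls at 0.05. The change between times was an interaction contrast over all libraries. DESeq2 1.42.0, limma 3.58.1 (voom), other scalings and filters, a joint fit, Rfx6f/f controls only and leaving out each library were the alternatives. Leaving out, at each time, the control and the labelled mutant library highest in acinar markers was added after seeing the data. Marker correlations used log2(CPM + 0.1), and likeness used a prior count of 2. Libraries of a group differed well beyond sampling noise (chi-square per degree of freedom at least 12.1). The fitting code was tested on simulated data. Members and gene lists were chosen with earlier results of these data known. All members and ligands are named, from each other pathway list the genes called at either time or, where none was, the 3 with the smallest p at 3 months, and for each tested member the 3 most correlated genes.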

Additional observations from a re-analysis of the deposited data

Results flagged for a closer look

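In 3 of 42 groups of sums and receptor values checked, 1 library lay far from the others of its group, where chance would give about 2.1. Only groups of 4 libraries were checked, so the 8-day controls were left out. Their acinar sums were 68.4, 16.5 and 1.42 CPM. In labelled mutant replicate 3 at 8 days the summed acinar markers were 122.0 CPM, with 1.073 to 1.979 CPM in the other 3. In control replicate 4 at 3 months the same sum was 622.6 CPM, with 20.21 to 106.1 CPM in the others. These 2 libraries also held the highest Cckar level of their groups (0.774 and 1.83 CPM). In control replicate 1 at 3 months the summed fibroblast markers were 974.8 CPM, with 884.6 to 895.0 CPM in the others. Without this library all 3 receptor calls at 3 months were lost, with log2 differences of 0.77 for Glp2r, 0.73 for Sstr1 and -1.67 for Glp1r against 0.83, 0.80 and -1.57 with it, and the genes called went from 1586 to 400. Leaving out control replicate 2 or 3, which did not stand apart, brought the genes called to 412 and 391 and the receptors called to 1 and 2.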

How the results depend on the processing

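The results counted here are 22 log2 differences of receptors tested in the main analysis and 10 levels per length. Of 431 alternative values over these 32, 390 were unchanged, 15 lost the call, 11 gained it and 15 changed sign. For a log2 difference, unchanged means the same direction and side of the threshold. A level per length has neither, and unchanged there means a mean that moved by less than the SD over the 15 libraries. The losses, gains and sign changes were all among the log2 differences. No paired analysis was possible because the labels give no replicate numbers shared between groups. The receptors called at 8 days stayed at 0 under all alternatives. At 3 months the count of 3 became 0 with Rfx6f/f controls only (where fewer libraries enter) and 1 without the acinar-rich pair, became 4 with DESeq2, and ran from 0 to 3 when leaving out 1 library. For the difference between times the count of 0 became 1 with RLE scaling, DESeq2, no filter, 10 counts in every sample, robust empirical Bayes or TMM without the 20 most counted genes, and ran from 0 to 1 when leaving out 1 library. The cause was not tested.

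Sign changes concerned values that were not called: at 8 days, Cckar with limma-voom (-0.10) and without the acinar-rich pair (-0.31), Npy1r (-0.025) and Ntsr1 (-0.34) without that pair. When leaving out 1 library the 8-day log2 differences ran from -0.092 to 0.41 for Gipr, -0.26 to 0.41 for Cckar, -0.014 to 0.21 for Npy1r, -0.16 to 0.33 for Ntsr1, -0.084 to 0.57 for Sstr1 and -0.62 to 0.28 for Sstr2. For Cckar they ran from -1.33 to 0.47 at 3 months and from -1.47 to 0.38 for the difference between times.

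The count of all genes called moved most. At 8 days 16 became 178 with DESeq2 (61.2% higher against 37.5%), 27 without the filter, 25 in the joint fit, 4 without the acinar-rich pair, and 8 to 200 when leaving out 1 library (200 without labelled mutant replicate 1), with 25.0% to 90.0% higher. At 3 months 1586 became 2983 with DESeq2, 36 with Rfx6f/f controls only (63.9% higher against 53.5%), and 391 to 1521 when leaving out 1 library (50.3% to 66.7% higher). For the difference 141 became 1017 with DESeq2, 41 with limma-voom, 223 without the filter, 248 with 10 counts in every sample, 5 with Rfx6f/f controls only, and 10 to 749 when leaving out 1 library (27.5% to 68.3% more positive). Cckbr and Ghsr are limited by depth, at 5 counts or fewer in every library.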
